A study of Mus musculus with 6 samples.

Results

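Immediate early genes are switched on within minutes of a stimulus, before any new protein has to be made. Growth factor and cAMP signals reach their promoters through kinases that act on factors already bound there, such as SRF with its Elk partners and CREB, and most of the resulting transcripts are short-lived. In the testis cAMP signalling carries the action of both gonadotropins, and dissection and handling of a tissue are also known to raise these genes. Their levels in a tissue can therefore mirror both the state of the animal and the way the sample was taken.

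The genes described here are Egr1, a zinc finger transcription factor, Fos, Jun and Junb, subunits of the AP-1 transcription factor, and Ier2, a short nuclear protein first known as a serum response gene. They were taken as every probe whose gene symbol in the platform annotation is one of these names. That gave 5 probes, 1 for each gene, out of 33012 probes that stand for 13840 named genes. The set was chosen by the signal and signal-to-noise values of Egr1, which was detected on the wild-type-labelled arrays only, so its values are a description and carry no test. In the RefSeq annotation of GRCm38.p6, Egr1 lies at chr18:34861207-34864956, Fos at chr12:85473890-85477274, Jun at chr4:95049036-95052222, Junb at chr8:84976909-84978748 and Ier2 at chr8:84661331-84662852. Where each probe lies within its gene was not known here.

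Whole testes of 6 adult male mice on the C57BL/6J background, 10 to 12 weeks old, were profiled on 1-colour arrays, with 1 array for each animal and 3 groups of 2 animals. They comprised Abcg8 knockout mice whose chow held 0.005% ezetimibe, an inhibitor of sterol uptake from the gut, Abcg8 knockout mice on chow without it, and wild-type mice on chow. Abcg8 is part of the transporter that returns plant sterols and cholesterol to the gut lumen and bile, and the comparisons ask whether its loss, with the plant sterols that then enter the body, changes testis transcripts and whether ezetimibe prevents this. No group holds wild-type mice on ezetimibe, so an effect of the drug by itself cannot be told apart from its effect in the knockout.

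The Abcg8 probe was brighter on the arrays labelled knockout than on those labelled wild type. Its raw signal was 25697 and 24767 in ezetimibe-fed mice and 20013 and 22134 in the other knockouts, against 1715 and 569 in wild types. The sources used here do not say whether that probe lies in the deleted stretch, so the labels could not be checked with it. The arrays are therefore called knockout-labelled and wild-type-labelled below, and every direction rests on those labels. The median raw signal of an array was 583 and 614 with ezetimibe, 611 and 515 in knockout-labelled mice and 678 and 258 in wild-type-labelled mice. Wild-type-labelled replicate 2, the dimmest array, also stood apart on the first principal component, which held 39.3% of the variance, with a score of 53.6 against -17.3 to 0.73 for the other 5 arrays. A probe was called detected on an array at a signal-to-noise score of at least 3, and it was tested when both arrays of some group detected it, as held for 16015 probes. Of the 5 genes, Egr1, Junb and Ier2 met this. Levels below are log2 raw signals after quantile normalisation between arrays, given as mean ± SD (n = 2 arrays), and a level of 1 probe is never set against that of another.

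The promoters of the AP-1 genes are shown because they carry the short elements through which signals act on these genes. Each line holds the 120 bases before the RefSeq transcription start in GRCm38.p6, 5′ to 3′ on the strand of the gene, and the capitals mark the motif that was found. The stretch of Fos is chr12:85473770-85473889 on the plus strand, that of Jun is chr4:95052223-95052342 on the minus strand, and that of Junb is chr8:84978749-84978868 on the minus strand.
Fos: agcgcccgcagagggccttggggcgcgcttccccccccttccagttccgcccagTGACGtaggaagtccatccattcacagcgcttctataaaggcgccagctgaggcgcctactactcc
Jun: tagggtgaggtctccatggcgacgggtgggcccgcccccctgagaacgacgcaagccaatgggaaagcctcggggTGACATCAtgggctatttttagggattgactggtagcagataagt
Junb: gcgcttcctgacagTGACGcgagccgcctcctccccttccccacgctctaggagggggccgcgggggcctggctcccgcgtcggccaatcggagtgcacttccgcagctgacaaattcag
In Fos the core of a cAMP response element, TGACG, lies at -66 to -62 from the transcription start, and another at -129 to -125, outside the printed stretch. Junb holds the same letters at -106 to -102. Jun holds TGACATCA, a variant AP-1 site long known in this promoter, at -45 to -38. Both strands of the 250 bases before the start were searched, and the same search over 32851 RefSeq promoters found TGACG in 17.8% of them and TGACATCA in 2.93%. A CArG box (the binding site of SRF, in 1.47% of promoters), the AP-1 site TGANTCA (in 6.75%) and the Egr site GCGNGGGCG (in 4.7%) were not matched in these windows. Bases further upstream were not searched, so a missing match here does not show that a gene lacks the element. The matches are letters only and were not tested as binding sites. Egr1 and Ier2 had no entry in the promoter table.

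Egr1 was above the detection threshold on both wild-type-labelled arrays and on none of the 4 knockout-labelled arrays, with or without ezetimibe. EGR1 binds GC-rich sites in promoters of growth and differentiation genes, and in the pituitary it drives the gene for the beta subunit of luteinizing hormone. Its raw signal was 133.5 and 146.9 with ezetimibe and 259.6 and 151.9 in knockout-labelled mice, against 836 and 320.3 in wild-type-labelled mice. Its signal-to-noise score was 1.0 and 1.56 with ezetimibe and 1.29 and 1.22 in knockout-labelled mice, against 4.68 and 3.73 in wild-type-labelled mice. Both wild-type-labelled arrays were thus only slightly above the threshold of 3, and none of the knockout-labelled arrays came near it.

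After normalisation, which brings the dim wild-type-labelled array to the scale of the others, the Egr1 level was 6.97 and 6.89 with ezetimibe (6.93 ± 0.05), 7.85 and 7.32 in knockout-labelled mice (7.59 ± 0.37), and 9.32 and 9.39 in wild-type-labelled mice (9.35 ± 0.05). The 3 groups did not overlap. The wild-type-labelled arrays were the highest and the ezetimibe arrays the lowest, although values below detection do not fix a level. The difference in log2 signal was -2.42 between ezetimibe and wild-type-labelled mice and -1.77 between knockout-labelled and wild-type-labelled mice. As measured, Egr1 was 5.37-fold lower with ezetimibe and 3.40-fold lower in knockout-labelled mice than in wild-type-labelled mice. All 4 undetected levels lay above the lowest detected signal of their arrays, so that signal sets no bound below the measured fold. A bound sets each undetected value at the signal where the Egr1 probe itself would have reached the threshold on that array, which was 400.6 and 282.4 raw units with ezetimibe and 603.7 and 373.6 in knockout-labelled mice. Against those limits and the authors' processed values Egr1 was at least 2.20-fold lower with ezetimibe and at least 1.44-fold lower in knockout-labelled mice. That limit was added after the values had been seen. Between ezetimibe and knockout-labelled mice both groups were below detection, so no fold is given.

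**Figure D1:**
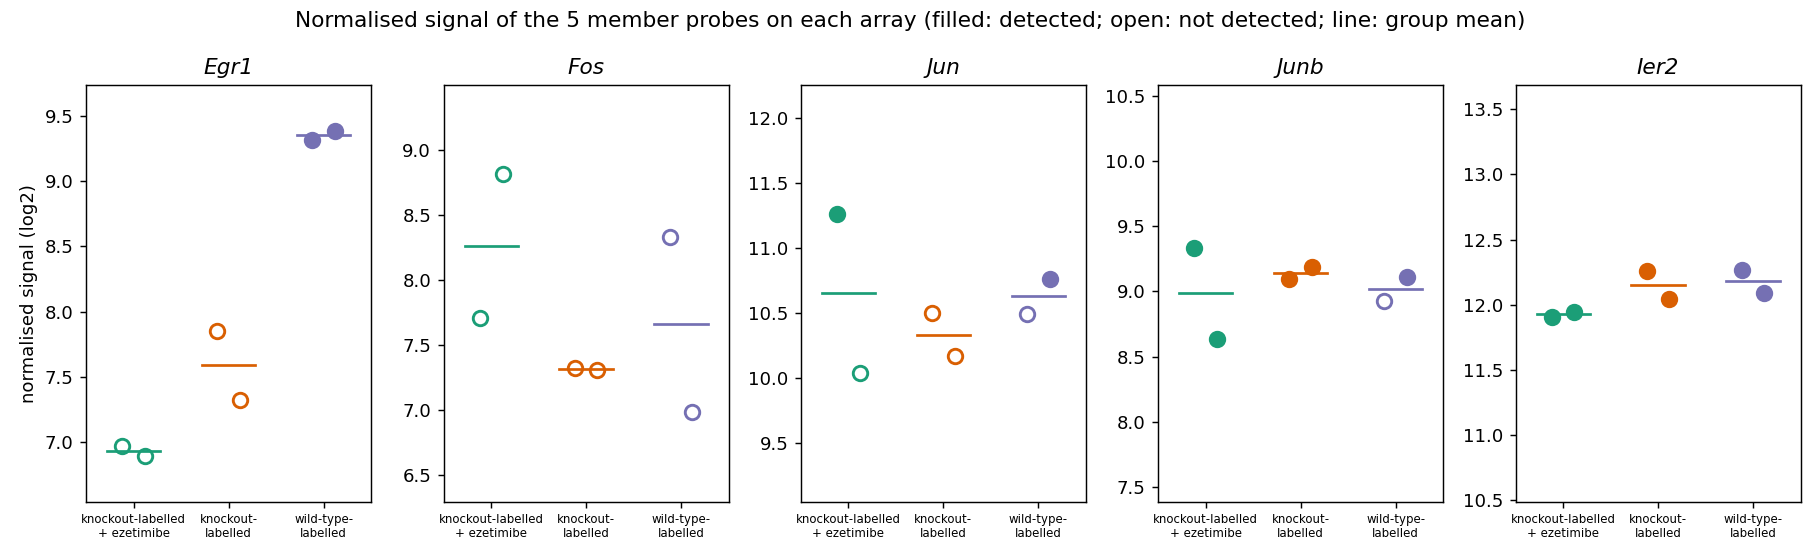
Normalised log2 signal (vertical axes) of Egr1, Fos, Jun, Junb and Ier2 on each array, 1 panel per gene, for ezetimibe knockout, knockout-labelled and wild-type-labelled mice from left to right. Filled points are detected arrays, open points are arrays below a signal-to-noise score of 3, and lines mark the mean of 2 arrays. Egr1 sits at 6.89 to 7.85 on the 4 knockout-labelled arrays, against 9.32 and 9.39 in wild-type-labelled mice, while the groups of Jun and Junb overlap.

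A pattern of detection on both wild-type-labelled arrays and no other was rare on the array but not peculiar to Egr1. It was seen for 72 probes, 0.218% of all, and among them were probes of 32 named genes, which included the macrophage scavenger receptor Cd163 and the junction protein Plekha7. The other detection patterns were more frequent. There were 98 probes (0.297%) detected on both ezetimibe arrays only, 153 (0.463%) on both knockout-labelled arrays without ezetimibe only, and 93 (0.282%) on all 4 knockout-labelled arrays and neither wild-type-labelled array. A weak probe near the threshold can lose detection with a small shift. Of 524 probes with a score of 3 to 5 on both wild-type-labelled arrays, as Egr1 had, 40 (7.63%) were detected on no knockout-labelled array.

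Fos, the AP-1 subunit that pairs with the Jun proteins, was detected on none of the 6 arrays. Its raw signal was 223.9 and 535.1 with ezetimibe, 175.6 and 150.4 in knockout-labelled mice, and 403.4 and 79.6 in wild-type-labelled mice. Its signal-to-noise score was 0.14 and -0.31 with ezetimibe, 1.19 and -1.18 in knockout-labelled mice, and 2.38 and 0.68 in wild-type-labelled mice. All 6 scores were below the detection threshold, and the brightest array, ezetimibe replicate 2, had a score below 0. The normalised levels were 7.71 and 8.81 with ezetimibe, 7.32 and 7.31 in knockout-labelled mice and 8.33 and 6.98 in wild-type-labelled mice. The ezetimibe arrays were above the knockout-labelled ones and the wild-type-labelled arrays lay on either side of them, all below detection, so whether Fos transcripts followed Egr1 was not detectable on these arrays.

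Jun, the founding AP-1 subunit, was detected on ezetimibe replicate 1 and wild-type-labelled replicate 2 and on no other array, and was therefore not tested. Its signal-to-noise score was 4.23 and -0.29 with ezetimibe, 2.5 and 1.82 in knockout-labelled mice, and 2.45 and 3.35 in wild-type-labelled mice. Its raw signal was 2836 and 1220 with ezetimibe, 1751 and 1167 in knockout-labelled mice, and 1910 and 782.3 in wild-type-labelled mice. The Jun probe was noisy rather than dim, since its signal divided by its score lay between the percentiles 96.6 and 98.4 of comparable probes on the 5 arrays where this ratio could be formed. The normalised level was 10.65 ± 0.86 with ezetimibe, 10.33 ± 0.23 in knockout-labelled mice and 10.63 ± 0.19 in wild-type-labelled mice. The groups overlapped in each comparison, and the wide spread with ezetimibe came from arrays at 11.26 and 10.04.

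Junb, a Jun relative that can dampen the action of JUN on some targets, gave overlapping levels in the 3 groups. Its raw signal was 733.6 and 473.6 with ezetimibe, 646.3 and 579.2 in knockout-labelled mice, and 628.7 and 271 in wild-type-labelled mice. Its signal-to-noise score was 4.10 and 3.41 with ezetimibe and 5.25 and 3.22 in knockout-labelled mice, against 2.82 and 3.46 in wild-type-labelled mice. It was thus detected on all 4 knockout-labelled arrays and missed detection on wild-type-labelled replicate 1. The normalised levels were 9.33 and 8.64 with ezetimibe (8.99 ± 0.49), 9.10 and 9.19 in knockout-labelled mice (9.14 ± 0.06), and 8.92 and 9.11 in wild-type-labelled mice (9.02 ± 0.13). No group stood clear of another in any comparison.

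In limma's moderated test, 2 of the 16015 probes passed an adjusted p of 0.05 between knockout-labelled and wild-type-labelled mice, which is 0.0125%, 2 (0.0125%) passed between ezetimibe and wild-type-labelled mice, and 0 (0%) passed between ezetimibe and knockout-labelled mice. Without adjustment, 1440, 1160 and 922 probes had p below 0.05 in these comparisons, 8.99%, 7.24% and 5.76% of those tested. Junb was among the many that did not pass. Its log2 difference was 0.12 (95% interval -0.52 to 0.77, limma adjusted p = 0.857) between knockout-labelled and wild-type-labelled mice and -0.03 (interval -0.68 to 0.61, limma adjusted p = 0.990) between ezetimibe and wild-type-labelled mice. Between ezetimibe and knockout-labelled mice it was -0.16 (interval -0.80 to 0.49, limma adjusted p = 0.959). Knockout-labelled mice thus had no lower Junb mean than wild-type-labelled mice, though the interval reaches down to -0.52.

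Ier2 was the best measured of these genes and was detected on every array, with signal-to-noise scores of 25.3 to 37.0. Its raw signal was 4435 and 4507 with ezetimibe, 5913 and 4409 in knockout-labelled mice, and 6539 and 1963 in wild-type-labelled mice. Its normalised level was 11.91 and 11.95 with ezetimibe (11.93 ± 0.03), 12.26 and 12.05 in knockout-labelled mice (12.15 ± 0.15), and 12.27 and 12.09 in wild-type-labelled mice (12.18 ± 0.12). Knockout-labelled and wild-type-labelled arrays overlapped, with a log2 difference of -0.03 (95% interval -0.35 to 0.29, limma adjusted p = 0.943). The sign of that difference was not fixed, since it was 0.088 after median scaling. The interval reaches down to -0.35, so a drop of up to that size is not excluded for Ier2.

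With ezetimibe, both Ier2 levels were below those of the other 4 arrays, by a log2 difference of -0.23 from knockout-labelled mice (interval -0.55 to 0.09, limma adjusted p = 0.913) and -0.25 from wild-type-labelled mice (interval -0.57 to 0.07, limma adjusted p = 0.737). Neither passed the test. Of all tested probes, 19.7% were lower with ezetimibe than in knockout-labelled mice without overlap and 18.2% were lower than in wild-type-labelled mice without overlap, so the separation of Ier2 is a common one. Summed levels of 5 of 11 marker lists were also lower on both ezetimibe arrays than on the other 4, namely those of Leydig cells, Sertoli cells, macrophages, fibroblasts with matrix, and red blood cells. The 5 measured of 8 Leydig cell markers summed to 55782 to 65942 normalised units with ezetimibe, 79217 to 79806 in knockout-labelled mice and 72647 to 72938 in wild-type-labelled mice. The 6 measured of 9 macrophage markers summed to 48535 to 54410 with ezetimibe, 64150 to 65670 in knockout-labelled mice and 60127 to 65250 in wild-type-labelled mice. The 7 measured of 10 Sertoli cell markers summed to 818618 to 913629 with ezetimibe, 961853 to 1007430 in knockout-labelled mice and 916491 to 921928 in wild-type-labelled mice. The 5 measured of 6 fibroblast and matrix genes summed to 64435 to 74512 with ezetimibe, 90378 to 117883 in knockout-labelled mice and 76769 to 84481 in wild-type-labelled mice. The mean log2 deviation from each gene's mean gives every gene equal weight. By it, Sertoli cell markers stood at -0.075 with ezetimibe and -0.30 to 0.047 in wild-type-labelled mice, so they overlapped. Fibroblast and matrix genes overlapped too, at -0.22 to -0.20 against -0.24 to -0.13. The Leydig cell, macrophage and red cell lists stayed lowest on both ezetimibe arrays. The peritubular myoid and smooth muscle list, which was not lowest by its sums, was lowest there by this measure. It stood at -0.069 to -0.031 with ezetimibe, 0.020 to 0.029 in knockout-labelled mice and 0.014 to 0.037 in wild-type-labelled mice. The part of these cell types in the Ier2 values was not tested, and in whole testis fewer cells of a type and less RNA per cell cannot be told apart.

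**Figure D2:**
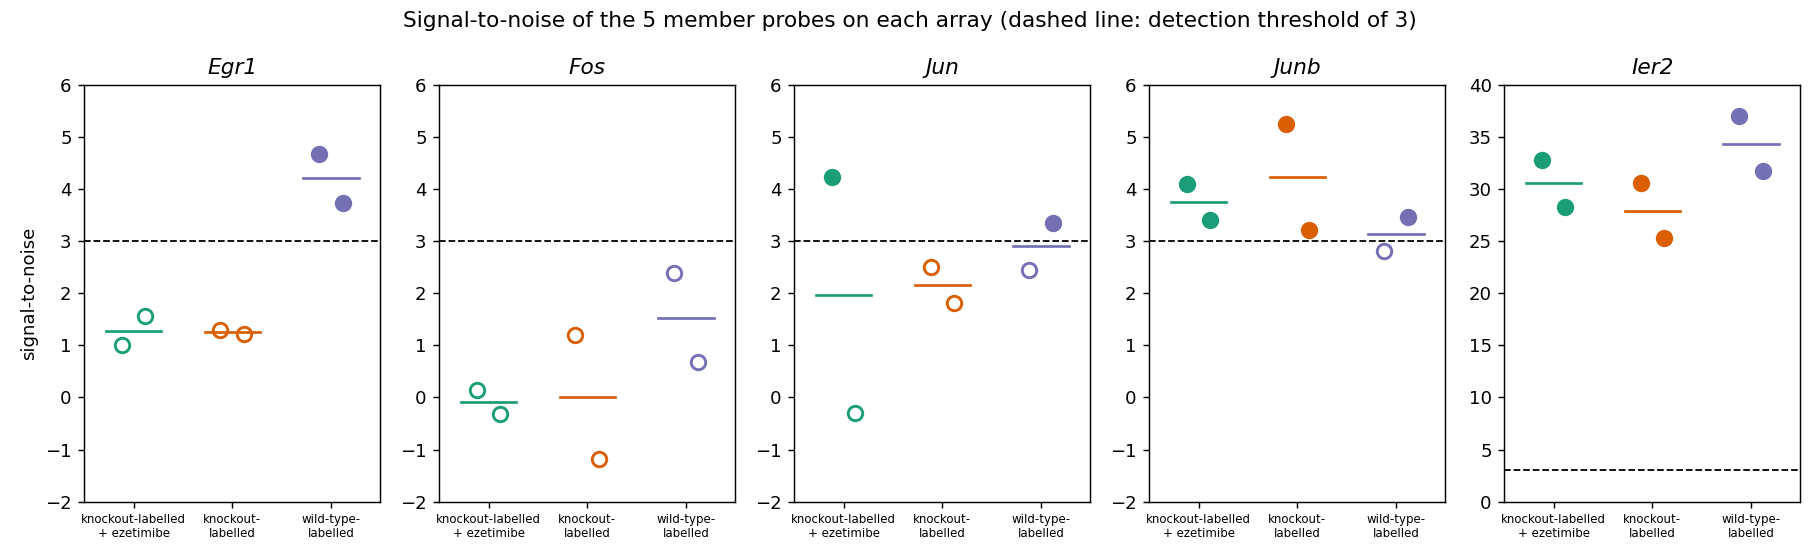
Signal-to-noise score (vertical axes) of the same 5 genes on each array, with the detection threshold of 3 drawn as a dashed line, for ezetimibe knockout, knockout-labelled and wild-type-labelled mice from left to right. Egr1 clears the line on the wild-type-labelled arrays only, at 4.68 and 3.73, Fos on none, and Ier2 on all 6.

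Of 11 marker lists for the cell types of the testis, blood and epididymis, 0 had both wild-type-labelled sums above all 4 knockout-labelled sums and 0 had both below. These sums are carried by the brightest genes of a list, and single markers did share the order of Egr1. With equal weight per gene, the spermatogonia list was lower on both wild-type-labelled arrays (-0.42 to -0.12) than on all 4 knockout-labelled arrays. Those stood at 0.038 to 0.25 with ezetimibe and 0.012 to 0.23 without it. Of the 51 measured markers, 8 were lower on all 4 knockout-labelled arrays than on both wild-type-labelled arrays, which held for 9.38% of all tested probes. Another 4 were higher on all 4, which held for 9.61%. The 8 include Cd163, which passed the filter only through the wild-type-labelled arrays.

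Among the 6 measured macrophage markers, 3 were lower in this way, the complement genes C1qa and C1qc and the scavenger receptor Cd163. Cd163 was detected on the wild-type-labelled arrays only (scores 5.24 and 3.02), so its place in this count was largely set by the filter. Among the 5 measured Leydig cell markers 2 were lower in this way, the steroidogenic genes Hsd3b6 and Hsd17b3. Hsd3b6 had log2 levels of 11.63 and 11.65 with ezetimibe and 12.04 and 12.03 in knockout-labelled mice, against 12.42 and 12.60 in wild-type-labelled mice. C1qc had log2 levels of 12.16 and 12.28 with ezetimibe and 12.73 and 12.59 in knockout-labelled mice, against 12.85 and 12.86 in wild-type-labelled mice. Both genes were thus lowest with ezetimibe and highest in wild-type-labelled mice, the order of the Egr1 levels, though neither passed the adjusted test in any comparison. Between knockout-labelled and wild-type-labelled mice, 2 of the 5 Leydig cell markers and 1 of the 6 macrophage markers went the other way. Cyp11a1 was higher in knockout-labelled mice by 0.45, Cyp17a1 by 0.12 and Lyz2 by 0.26, each without overlap. The part of these cells in the Egr1 values was not tested.

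The tissue held testis cells by its spermatid markers. The 6 measured spermatid genes summed to 3.35e+06 to 3.36e+06 normalised units with ezetimibe and 3.33e+06 to 3.38e+06 in knockout-labelled mice. In wild-type-labelled mice they summed to 3.19e+06 to 4.87e+06. Of 5 listed epididymis genes 1 was measured, Lcn8, which was detected on all 6 arrays with scores of 28.7 to 66.4. Whether epididymis was present was not tested. The 2 measured of 4 red cell genes were uneven, with sums of 36791 to 57807 with ezetimibe, 163149 to 326714 in knockout-labelled mice and 66077 to 68503 in wild-type-labelled mice. This differs from the order of the Egr1 levels, in which knockout-labelled mice were not the highest.

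A wider list of 45 immediate early genes was set beside the 5, with the members included. Each had a probe, 32 were tested, 22 were detected on all 6 arrays and 6 on none. The undetected genes were Fos, the stress factor Atf3, the growth regulator Myc, the activity-dependent factor Npas4, the nuclear receptor Nr4a2 and the kinase Plk3. Egr1 was the only listed gene detected on both wild-type-labelled arrays and no other, 2.22% of the list. The looser pattern of detection on both wild-type-labelled arrays but not on all 4 knockout-labelled arrays was met by Egr1, Fosl1, Nr4a1, Socs3 and Zfp36, which are 11.1% of the list, against 2.98% of all probes. Egr1 is in this count by choice. Fosl1 missed only ezetimibe replicate 1 (score 2.2), and its knockout-labelled mean was 0.08 above that of wild-type-labelled mice. Only 16015 of 33012 probes were tested, against 32 of the 45 listed genes, so the 2 shares are not alike. Junb and Errfi1, a feedback inhibitor of the EGF receptor, showed the reverse, 4.44% of the list against 2.34% of all probes. Since the list was chosen with results known, these shares are descriptions.

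**Figure D3:**
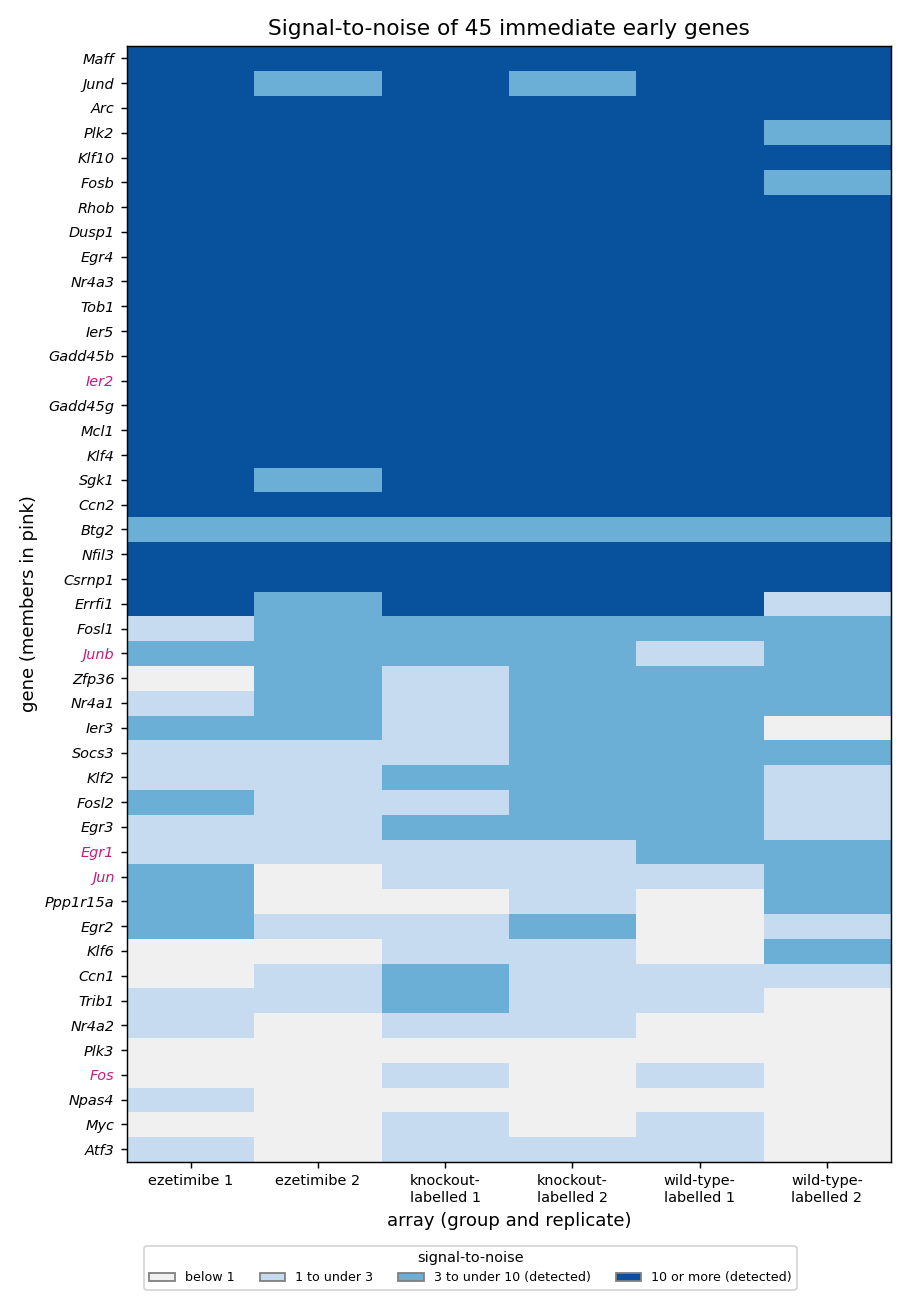
Detection of the 45 immediate early genes on each of the 6 arrays, with genes down the page, members in pink, and arrays across it, ezetimibe knockout, knockout-labelled and wild-type-labelled from left to right. The 2 darker blues mark a signal-to-noise score of at least 3, and the paler shades lower scores. Egr1 is dark on the wild-type-labelled arrays only, 22 genes are dark across, and 6 on no array.

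Between knockout-labelled and wild-type-labelled mice 0 of the 32 tested genes passed limma's adjusted test, and the same count of 0 was found in the other comparisons and with an intensity trend in the fit. At an unadjusted p below 0.05 there were 4 genes in that comparison, 6 between ezetimibe and wild-type-labelled mice and 3 between ezetimibe and knockout-labelled mice, set against 8.99%, 7.24% and 5.76% of all tested probes. Egr1, chosen for its pattern, is in each of these counts. The rest were Maff, Egr3 and Socs3 in the first comparison, Plk2, Zfp36, Maff, Socs3 and Gadd45b in the next, and Egr3 and Ccn2 in the last. Socs3 and Zfp36 passed the filter only through the wild-type-labelled arrays, and Egr3 only through the knockout-labelled arrays without ezetimibe.

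Between knockout-labelled and wild-type-labelled mice 22 of the 32 tested genes were below 0 and 10 above, with a median log2 difference of -0.04 against 0.01 for all tested probes, of which 49.1% were below 0. Of the 32, 11 (34.4%) were lower without overlap and 4 (12.5%) were higher, against 21.1% and 22.6% of all tested probes. Egr1, Nr4a1, Socs3 and Zfp36, all among the lower genes, passed the filter only through the wild-type-labelled arrays, where they were highest. Among the 22 listed genes detected on all 6 arrays, 7 (31.8%) were lower and 3 (13.6%) higher, against 22.4% and 21.8% of all such probes. Median scaling changed this picture. It put 12 of the 32 below 0, with 5 (15.6%) lower and 5 (15.6%) higher without overlap, but it also moved the median of all tested probes to 0.11. Relative to that median, 21 of the 32 were lower, close to the 23 counted in the same way after quantile normalisation. Among the 22 genes detected on all 6 arrays, median scaling left 1 (4.55%) lower and 3 (13.6%) higher without overlap. The shares of all such probes were 10.1% and 34%, so the counts below 0 and without overlap depended on the filter and the scaling. Relative to the median of all such probes, 15 of the 22 were lower under either scaling.

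With ezetimibe, 23 of the 32 genes were below wild-type-labelled mice and 9 above, with a median log2 difference of -0.10 and 48.9% of all tested probes below 0, and 14 (43.8%) were lower and 2 (6.25%) higher without overlap, against 18.2% and 18.6% of all tested probes. Median scaling left 9 (28.1%) lower and 0 higher, against 12.5% and 21.4% of all tested probes under that scaling. Among the 22 listed genes detected on all 6 arrays, 10 (45.5%) were lower and 2 (9.09%) higher, against 18.5% and 17.7% of all such probes. With median scaling 5 (22.7%) of these were lower and 0 higher, against 11.6% and 21.1%. Between ezetimibe and knockout-labelled mice 22 were below 0 and 10 above, with a median of -0.09 and 49.8% of all tested probes below 0, and 10 (31.2%) were lower and 3 (9.38%) higher without overlap, against 19.7% and 19.1% of all. Median scaling put 24 below 0, with 10 (31.2%) lower and 0 higher without overlap. Under that scaling 61.8% of all tested probes were below 0, 24.1% lower and 11.8% higher. Among the 22 listed genes detected on all 6 arrays, 7 (31.8%) were lower and 3 (13.6%) higher in this comparison, against 19% and 19.4% of all such probes. With median scaling 7 (31.8%) of the 22 were lower and 0 higher, against 24.3% and 10.6%. These comparisons share arrays, so their counts are not independent of one another. Egr1 is again in each count of lower genes among the 32. Between ezetimibe and knockout-labelled mice Egr1 was below detection on every array compared. Egr3, also among the lower genes there, passed the filter only through the knockout-labelled arrays without ezetimibe.

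Among the tested genes of the list, Zfp36 and Nr4a1 had the lowest differences beside Egr1 between knockout-labelled and wild-type-labelled mice. Zfp36 encodes tristetraprolin, which speeds the decay of cytokine and immediate early transcripts. Its log2 level was 7.96 and 9.35 with ezetimibe and 8.86 and 9.32 in knockout-labelled mice, against 10.20 and 10.43 in wild-type-labelled mice. All 4 knockout-labelled arrays were below both wild-type-labelled ones, yet the difference of -1.66 between ezetimibe and wild-type-labelled mice (limma adjusted p = 0.626) and of -1.22 between knockout-labelled and wild-type-labelled mice (limma adjusted p = 0.545) did not pass the test. Nr4a1, an orphan nuclear receptor induced by luteinizing hormone in Leydig cells, had a log2 level of 10.41 and 10.04 with ezetimibe and 9.25 and 10.83 in knockout-labelled mice, against 11.25 and 11.15 in wild-type-labelled mice. Its difference was -0.97 with ezetimibe (limma adjusted p = 0.758) and -1.16 in knockout-labelled mice (limma adjusted p = 0.558), each against wild-type-labelled mice. The knockout-labelled arrays differed from each other by more than that. Zfp36 was below detection on ezetimibe replicate 1 (score 0.87) and knockout-labelled replicate 1 (score 1.51). Nr4a1 missed detection on the same arrays (scores 2.44 and 2.02), so the differences of both genes do not fix a size.

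Socs3, a cytokine feedback inhibitor, and Maff, a small Maf factor, were also lower on all 4 knockout-labelled arrays than on either wild-type-labelled array. Socs3 had a log2 level of 9.16 and 9.46 with ezetimibe and 9.21 and 9.32 in knockout-labelled mice, against 9.67 and 10.16 in wild-type-labelled mice. Maff had a level of 11.35 and 11.37 with ezetimibe and 11.16 and 11.46 in knockout-labelled mice, against 11.91 and 11.73 in wild-type-labelled mice. Knockout-labelled minus wild-type-labelled mice gave -0.65 for Socs3 (limma adjusted p = 0.517) and -0.51 for Maff (limma adjusted p = 0.492), and neither passed. Socs3 was below detection on both ezetimibe arrays (scores 2.96 and 2.76) and on knockout-labelled replicate 1 (score 2.26), so its difference does not fix a size.

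The other Egr genes did not move as Egr1 did. Egr4, which is known in male germ cells, was detected on all 6 arrays with log2 levels of 11.46 and 11.55 with ezetimibe, 11.77 and 11.38 in knockout-labelled mice, and 11.57 and 11.78 in wild-type-labelled mice. Knockout-labelled mice differed from wild-type-labelled mice by -0.10 (limma adjusted p = 0.824). Egr3 went the other way, with levels of 8.61 and 9.07 with ezetimibe, 9.74 and 10.27 in knockout-labelled mice, and 9.11 and 8.17 in wild-type-labelled mice. Its difference was 1.37 between knockout-labelled and wild-type-labelled mice (limma adjusted p = 0.495) and -1.17 between ezetimibe and knockout-labelled mice (limma adjusted p = 0.807). Egr3 was detected on both knockout-labelled arrays and on neither ezetimibe array. It was also detected on wild-type-labelled replicate 1, where its score of 6.18 was its highest. Egr2 was detected on 2 arrays, ezetimibe replicate 1 (score 3.36) and knockout-labelled replicate 2 (score 3.07), and was not tested. Its levels were 9.13 and 7.98 with ezetimibe and 8.17 and 8.49 in knockout-labelled mice, against 7.52 and 6.16 in wild-type-labelled mice. That order is opposite to that of Egr1, though most of these values were below detection.

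Among the AP-1 partners, Jund, which is expressed more steadily than the other Jun genes, had log2 levels of 11.09 and 10.40 with ezetimibe, 10.61 and 10.34 in knockout-labelled mice, and 10.97 and 10.80 in wild-type-labelled mice. Knockout-labelled mice differed from wild-type-labelled mice by -0.41 (limma adjusted p = 0.601). Fosb, a Fos relative, differed by -0.19 (limma adjusted p = 0.629) in that comparison. Dusp1, the phosphatase that ends MAP kinase signals and is itself an immediate early gene, differed by -0.11 (limma adjusted p = 0.735) and had scores far above threshold on every array. On the other side, Csrnp1, a nuclear protein induced by AXIN1, was higher in knockout-labelled than in wild-type-labelled mice by 0.51 (limma adjusted p = 0.560), Nfil3, a bZIP repressor, by 0.34, and Ccn2, a matrix protein gene, by 0.22. None of these passed.

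**Figure D4:**
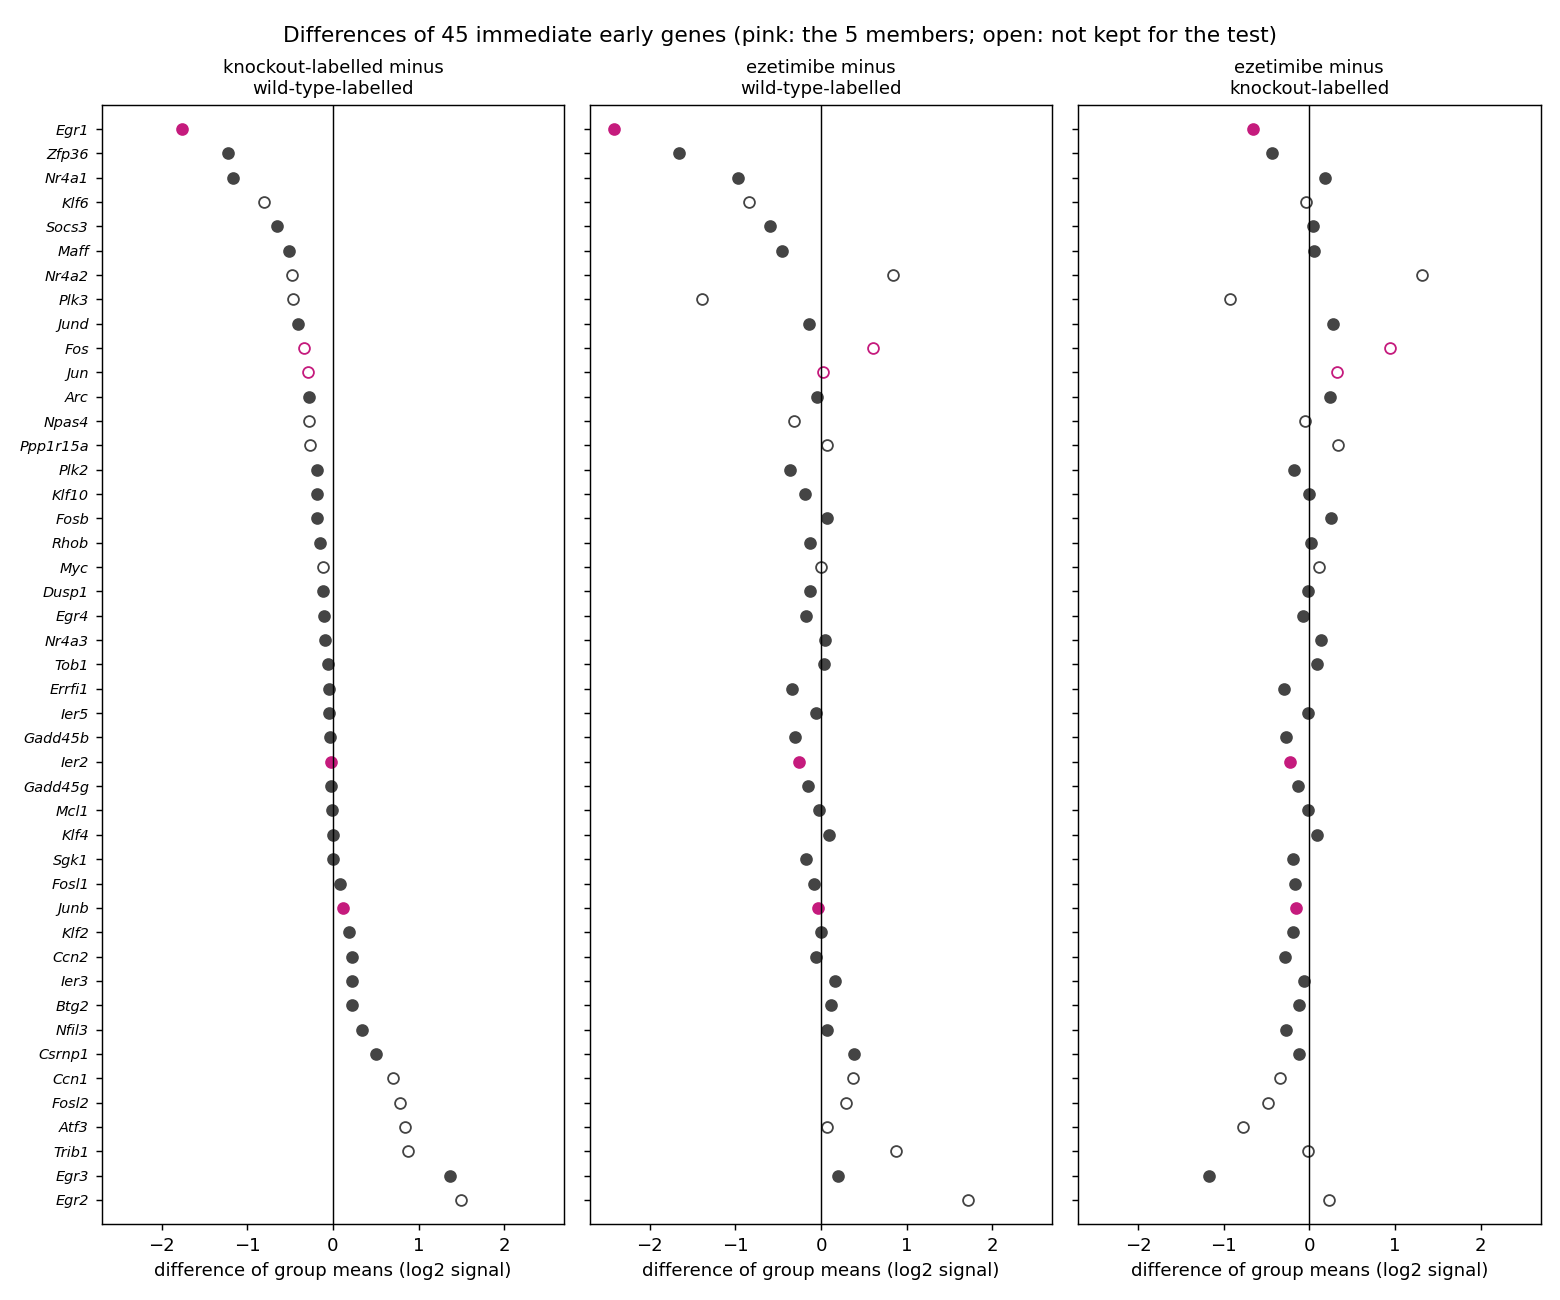
Log2 difference of group means (horizontal axes) of 45 immediate early genes in the 3 comparisons, 1 row per gene, with members in pink and open points for genes that were not tested. Egr1 lies at -1.77 between knockout-labelled and wild-type-labelled mice, the lowest of the listed genes, while Junb and Ier2 lie near 0.

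Neither the signalling genes above these promoters nor the partners of their products changed by the adjusted test. Of 24 upstream kinases and promoter factors, 13 had a probe and 8 were tested between knockout-labelled and wild-type-labelled mice, with 2 above 0, 6 below 0 and 0 passing. Creb1, which binds cAMP response elements, differed by 0.28 and Elk4, an SRF partner, by -0.11. Of 23 partners and repressors of Egr and AP-1, 19 had a probe and 14 were tested, with 9 above 0, 5 below 0 and 0 passing. Dusp6, a phosphatase of ERK, differed by 0.22 and Atf2, a partner of Jun, by -0.11. Of 12 heat shock and stress genes, 7 had a probe and 6 were tested, with 2 above 0, 4 below 0 and 0 passing. Ddit3, the stress factor CHOP, differed by -0.13 and Dnajb1, a heat shock cochaperone, by -0.09. At an unadjusted p below 0.05 the count in this comparison was also 0 in each of these 3 lists, against 8.99% of all tested probes. In the ezetimibe comparisons 0 again passed the adjusted test. At an unadjusted p below 0.05 Creb1 with ezetimibe differed by -0.66 from knockout-labelled and by -0.37 from wild-type-labelled mice, and the ERK pathway inhibitor Spry2 by -1.34 from knockout-labelled and by -1.27 from wild-type-labelled mice. Dusp6 differed by 0.69 from wild-type-labelled mice. Spry2 was below detection on both ezetimibe arrays (scores 0.85 and 1.13) and passed the filter only through the knockout-labelled arrays without ezetimibe, so its differences do not fix a size. Dusp6 passed the filter only through the ezetimibe arrays, where it was highest. Creb1 had 3 probes, and each Creb1 value here is that of its tested probe with the highest mean signal.

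Genes beside Egr1 on its chromosome, or reported as its targets, gave 8 tested of 13 listed, 11 of them with a probe. Between knockout-labelled and wild-type-labelled mice 3 were above 0, 5 below 0 and 0 passed, with 1 at an unadjusted p below 0.05. Pdgfa, a growth factor gene whose promoter EGR1 is known to bind in cultured cells, had the lowest p of them, with log2 levels of 14.25 and 14.16 with ezetimibe and 13.95 and 13.94 in knockout-labelled mice, against 14.28 and 14.27 in wild-type-labelled mice. Its difference was -0.33 (limma adjusted p = 0.495) between knockout-labelled and wild-type-labelled mice and -0.07 between ezetimibe and wild-type-labelled mice. The ezetimibe arrays of Pdgfa were therefore near the wild-type-labelled ones. The matrix gene Fn1 was higher in knockout-labelled than in wild-type-labelled mice by 0.39 (limma adjusted p = 0.545), without overlap. The translation termination factor Etf1 differed by -0.24 (limma adjusted p = 0.571) between knockout-labelled and wild-type-labelled mice.

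The probes whose levels followed those of each tested member most closely over the 6 arrays were found by Pearson's correlation with 8311 probes of named genes. They are given as a description, with no p, since 6 arrays in 3 groups fix much of any such pattern. For Egr1 they were Ly6m (0.993), Dolk (0.974), Plekha7 (0.971), Gstp1 (0.970) and Ecm1 (0.968). For Junb they were Nat8f1 (0.985), Tada2a (0.983), Wdr13 (0.979), Utp6 (0.978) and Cd5l (0.972). For Ier2 they were Spata31d1d (0.987), Fabp3 (0.974), Crip1 (0.974), LTO1 (0.969) and Gadd45g (0.967), of which Gadd45g is itself on the immediate early list. Over the same arrays the levels of Egr1 correlated with those of Ier2 at 0.681 and with those of Junb at -0.009, and those of Junb with those of Ier2 at -0.068, with 4 of the 6 Egr1 values below detection.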

How the data were processed

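Per the labels' protocols, digoxigenin-labelled cRNA from total RNA of 6 testis samples went onto 1-colour arrays. Per the file headers, the deposited table holds the raw signal of a probe as an intensity, together with its signal-to-noise as a score. The sources used here do not state the scanner software or its background treatment. The authors' processed intensity values are also deposited, and by comparison with the raw signals each array was divided by 1 constant close to its median (spread of the ratio at most 0.0991%). They served as an alternative. There were 0 other sample columns.

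Raw signals were taken as log2 and quantile-normalised with limma 3.58.1 in R 4.3.3. Tested probes reached a score of 3 on both arrays of some group (16015 of 33012). One mean per group and 1 shared spread were fitted by lmFit and moderated by eBayes. Benjamini-Hochberg adjustment ran over all tested probes in each comparison at 0.05. The smallest p that exact permutation allows for 2 against 2 arrays is 0.333. The number of arrays limits the precision, and p-values measure the spread between these samples only. The labels name no batch, slide or scan date, so none could be tested.

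Gene names came from the platform annotation, with 14411 probes of 1 symbol, and coordinates and promoters from RefSeq GRCm38.p6. Where both arrays of a group missed detection, a bound on the Egr1 fold set each of them to the signal at which that probe would have reached a score of 3 on its array. The members and gene lists were chosen with earlier results of these data known. Named genes were the 5 members, any measured gene of the immediate early list, up to 4 genes of lowest p between knockout-labelled and wild-type-labelled mice from each other pathway list, and the 5 probes most correlated with each tested member; Abcg8, Plekha7, Spry2 and single cell type markers were named after their values were seen. The fit was tested on simulated data. Alternatives were median scaling, the processed values, normexp with an offset of 50, other filters and detection thresholds, an intensity trend, array weights, 2 groups alone and leaving out each array.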

Additional observations from a re-analysis of the deposited data

How the results depend on the processing

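Calls over all tested probes depended on the fit, and the cause was not tested. Between knockout-labelled and wild-type-labelled mice the 2 calls became 0 without a filter on dim probes, 4 among probes detected on all 6 arrays, 31 with an intensity trend, 0 in a fit to the 2 groups alone, and 0 to 1 when an array was left out. Between ezetimibe and wild-type-labelled mice the 2 calls became 0 without a filter, 26 with a trend, 1 with array weights, 1 in the 2 groups alone and 0 to 3 when an array was left out. Between ezetimibe and knockout-labelled mice the 0 calls became 14 with a trend and 0 to 4 when an array was left out, with 4 without ezetimibe replicate 1 and 2 without ezetimibe replicate 2. The trend called 0 of the listed immediate early genes in each comparison. Median scaling put 12 listed genes, in place of 22, below 0 between knockout-labelled and wild-type-labelled mice, and left 9, in place of 14, lower without overlap between ezetimibe and wild-type-labelled mice.

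Detection near the threshold was fragile. At a score of 5 Egr1 was detected on 0 arrays, Jun on 0 and Junb on 1, and at a score of 2 Fos was detected on 1 array and Jun on 4. The Egr1 difference, whose sign the choice of the gene fixes, ran over the alternatives from -2.47 to -2.27 between ezetimibe and wild-type-labelled mice and from -2.0 to -1.49 between knockout-labelled and wild-type-labelled mice, and the bounds at the probe's own limit were 2.20-fold and 1.44-fold. Ier2 in knockout-labelled minus wild-type-labelled mice turned positive with median scaling (0.088) and with the processed values (0.089), and ran from -0.13 to 0.081 when an array was left out, positive without wild-type-labelled replicate 1 (0.060) or knockout-labelled replicate 2. The Junb difference ran from -0.50 to 0.19 between ezetimibe and knockout-labelled mice and from -0.38 to 0.32 between ezetimibe and wild-type-labelled mice when an array was left out. No alternative took Junb or Ier2 past the threshold, with limma adjusted p of 0.659 at the lowest. No paired analysis was possible because the labels give the groups no shared replicate numbers.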
